A study of Rattus norvegicus with 40 samples.

Results

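The comparison described here set the ischemia+reperfusion arm against the ischemia arm at the labelled time of 0 min in cultured neonatal rat ventricular myocytes (NRVMs), the muscle cells of the newborn rat heart. Its members were all arrays titled for 0 min, 8 of the 40 arrays of the series: 4 of ischemia+reperfusion and 4 of ischemia. Each group of 4 held 2 duplicates from each of 2 cell preparations, written below as preparation and duplicate (array 1-2 is preparation 1, duplicate 2). The other 32 arrays carried the same arms at 10, 30, 60 and 120 min. All groups were of the same cells, in a series that used coverslip hypoxia, in which a glass coverslip laid over the culture limits oxygen and medium. No genotype, agent or age beyond neonatal is labelled. The labels state neither the length of reperfusion nor what was done to either group at 0 min, where no time of ischemia had passed, nor whether duplicates were separate cultures. P-values therefore measure only the spread between these samples, which may be technical.

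Ischemia cuts oxygen and fuel to heart muscle, and reperfusion restores them. A time course of either is usually read from its 0 min sample, so a difference between the arms at that time enters any contrast of their changes from 0 min. Cultured cells are also sensitive to handling: a change of medium, serum or sterol supply alters transcripts of immediate early, glucose-responsive and cholesterol synthesis genes within hours.

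Values are log2(intensity + 16) after quantile normalization, with a floor of 4, and a difference is ischemia+reperfusion minus ischemia, averaged over the preparations, ± its standard error (SE, n = 2 preparations per group) from limma. Of 24 markers of the labelled cell type, cardiomyocytes, 23 were on the array and all 23 passed the filter on dim probe sets. None of the 4 erythroid markers on the array did. Fibroblast (18 of 19 tested), endothelial (9 of 11 on the array) and macrophage (15 of 17) markers also passed. So did 10483 of all 14217 named genes, so passing does not show which cell types were present. Mean marker levels on the 0 min arrays were 12.49 to 12.80 for cardiomyocyte and 10.50 to 11.08 for fibroblast markers. They were 8.27 to 8.72 for endothelial and 8.72 to 9.14 for macrophage markers. Medians of the deposited intensities ran from 130 to 152 over the 8 arrays, and no arrays were identical. The ischemia array 1-1 stood apart: its median correlation with the other arrays was 0.872, against 0.960 to 0.979 for the other 39, and it lay outside the range of the other 7 arrays at 0 min at 30.1% of the probe sets tested. Ischemia+reperfusion array 2-2 had the lowest of those 39 correlations, 0.960, and lay outside the range of its other 7 at 39.0% of probe sets, against 16.5% to 26.4% for the remaining arrays at 0 min. Results are given with and without array 1-1 of ischemia.

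At 0 min the arms differed at 62 of 18625 probe sets tested (0.333%) at an adjusted p under 0.05: 29 were higher (0.156%) and 33 lower (0.177%) in ischemia+reperfusion. These probe sets are called below. They carried 45 named genes on 46 probe sets, while 1 probe set matched several genes and 15 were unnamed. Differences ran from 1.51 for Rgs14 to -2.33 for Dennd4b, and 15 of the 62 exceeded 1 log2 unit, 4 higher and 11 lower. All 62 had the same sign in both preparations, and in 53 the 4 arrays of one arm did not overlap with the 4 of the other (9.66% of all probe sets tested did not); both are favoured by choosing probe sets on these arrays and are given as description. At an unadjusted p under 0.05, 3382 probe sets (18.2%) differed. Over all probe sets, the difference of preparation 1 correlated with that of preparation 2 by 0.16 (18625 probe sets, which share arrays and probes of like composition), and by 0.22 without array 1-1. The median SE of a difference was 0.118, and the half-width of its 95% interval was about 0.258 log2 units. That half-width takes no account of the number of tests, and a call needed more. The smallest called difference was 0.36 log2 units, with an SE of 0.058. At the median SE a difference of that size would not have been called, so the absence of a call does not exclude it.

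Irf2 and Nfkbil1 were among the higher genes with the smallest adjusted p. Irf2, a transcription factor that restrains interferon responses, had 8.75, 8.72, 8.63 and 9.01 in ischemia+reperfusion, against 8.01, 8.02, 8.36 and 7.76 in ischemia. The groups did not overlap, and Irf2 was higher by 0.74 ± 0.08 (limma adjusted p = 0.0095), and by 0.74 (adjusted p = 0.0128) without array 1-1. Nfkbil1, which encodes a nuclear protein related to the inhibitors of NF-kB, had 8.97, 8.99, 8.97 and 9.04, against 8.90, 7.89, 7.82 and 8.85 in ischemia. Its ischemia duplicates were split in both preparations, 1 array of each lying close to the ischemia+reperfusion arrays, so the averages agreed (0.63 ± 0.06, limma adjusted p = 0.0095) where the arrays did not. With arrays taken as samples its adjusted p was 0.0213. The list of 22 inflammatory and NF-kB genes tested had no called member in either direction, with 2 higher and 1 lower at an unadjusted p under 0.05 and a median of 0.05, beside 0.02 for all probe sets.

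**Figure D1:**
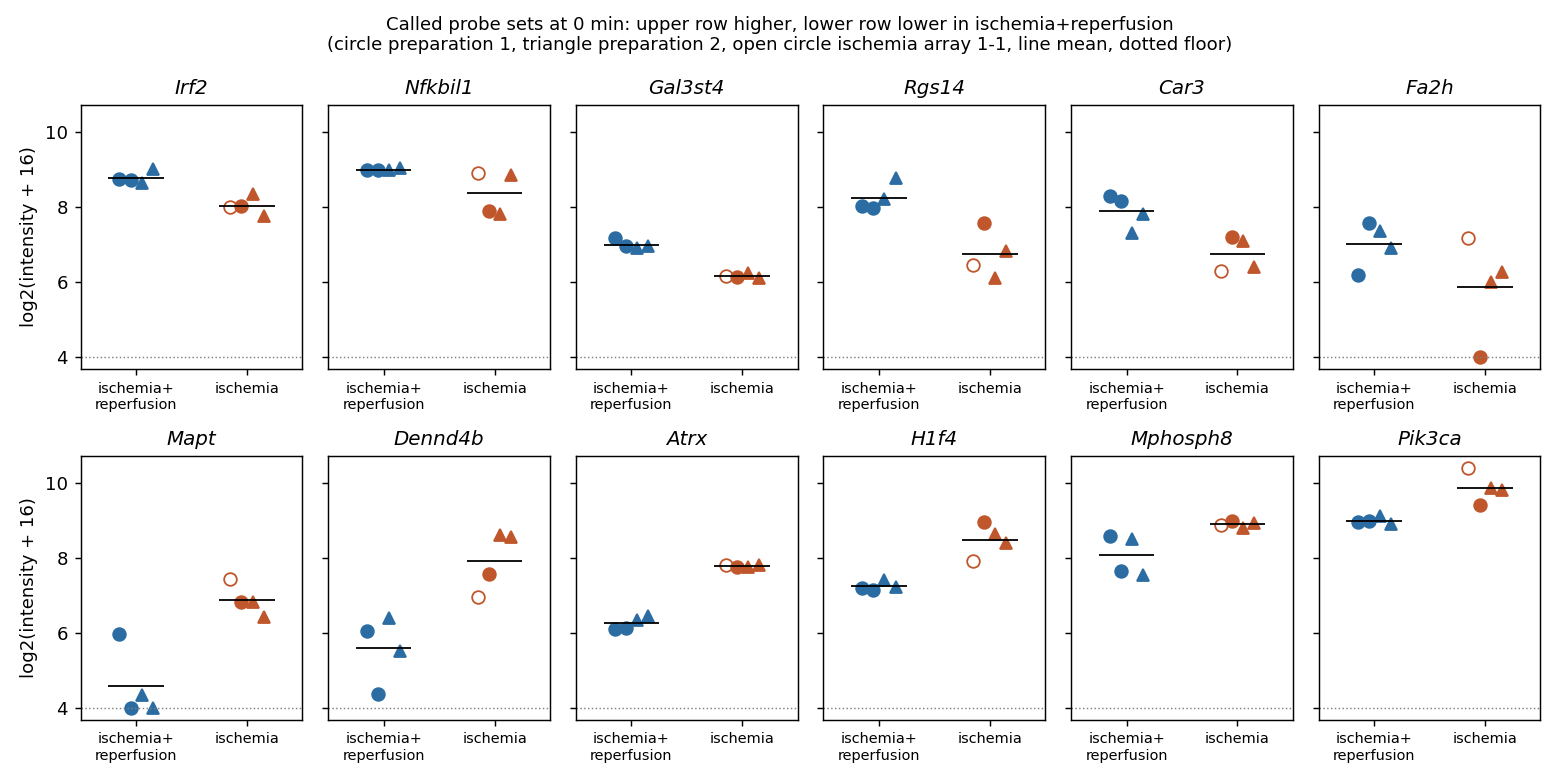
Log2(intensity + 16) of 12 called probe sets on each of the 8 arrays at 0 min, with ischemia+reperfusion in blue on the left and ischemia in orange on the right of each panel. Circles are preparation 1, triangles preparation 2, the open circle is ischemia array 1-1, bars are group means and the dotted line is the floor of 4. Arrays of the arms separate fully in 11 panels, and in Fa2h they overlap.

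The largest differences among the higher genes were those of Rgs14, Fa2h, Car3 and Hps1. Rgs14, which speeds GTP hydrolysis by inhibitory G protein alpha subunits, had 8.02, 7.98, 8.20 and 8.77 in ischemia+reperfusion, against 6.44, 7.57, 6.11 and 6.81 in ischemia. The groups did not overlap. The difference of 1.51 ± 0.27 passed narrowly (limma adjusted p = 0.0497), and was 1.23 (adjusted p = 0.11) without array 1-1. With arrays taken as samples the limma adjusted p was 0.0529. Car3, a muscle carbonic anhydrase that converts carbon dioxide to bicarbonate, had 8.29, 8.15, 7.29 and 7.82, against 7.21 at most in ischemia (6.28, 7.21, 7.08 and 6.40). Its difference was 1.15 ± 0.19 (limma adjusted p = 0.0453) and 0.91 (adjusted p = 0.0488) without the array. Gal3st4, a sulfotransferase that acts on galactose of glycoproteins, had 7.18, 6.95, 6.89 and 6.95, against 6.16, 6.14, 6.24 and 6.10 in ischemia, and the groups lay well apart (0.83 ± 0.14, limma adjusted p = 0.0453; 0.0334 without array 1-1).

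Fa2h, the fatty acid 2-hydroxylase of sphingolipid synthesis, was called although its ischemia duplicates of preparation 1 lay far apart, so the call rests on their average. It had 6.19, 7.57, 7.35 and 6.92 in ischemia+reperfusion, against 7.16, 4, 5.99 and 6.27 in ischemia, where array 1-2 lay at the floor and array 1-1 above 2 of the ischemia+reperfusion arrays. The difference was 1.15 ± 0.13 (limma adjusted p = 0.0095) with all arrays. Without array 1-1 it was larger, 1.94 ± 0.40, and was not called (limma adjusted p = 0.0517). With arrays taken as samples the limma adjusted p was 0.114. Thap3, a zinc finger protein of the THAP family, had 9.15, 9.25, 9.10 and 9.15, against 8.25, 9.06, 8.73 and 8.21 in ischemia, and its 0.60 ± 0.07 (limma adjusted p = 0.0095) became 0.40 (adjusted p = 0.167) without array 1-1. The other tested probe set of Thap3 differed by -0.20 and was not called. Hps1, a subunit of a complex needed to form lysosome-related organelles, was higher by 1.03 and by 0.70 without the array, where its adjusted p was 0.114. The remaining named higher genes kept their calls without the array: Tigd5 (0.89), derived from a transposase, Rsrp1 (0.87), an arginine- and serine-rich protein, C8h3orf18 (0.70) and the methyltransferase Mettl7b (0.61), whose adjusted p was 0.14 with arrays taken as samples.

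The lower genes reached larger differences than the higher ones. Mapt, the microtubule-binding protein tau, had 5.98, 4, 4.35 and 4 in ischemia+reperfusion, where 2 arrays lay at the floor, against 7.44, 6.81, 6.82 and 6.43 in ischemia. The arms did not overlap; the difference of -2.29 ± 0.28 (limma adjusted p = 0.0114) is limited by the floor, and was -2.13 (adjusted p = 0.0134) without array 1-1. The other 2 tested probe sets of Mapt differed by 0.26 and -0.21 and were not called. Dennd4b, an exchange factor for Rab GTPases of membrane traffic, had 6.05, 4.36, 6.39 and 5.52, against 6.94, 7.57, 8.60 and 8.55 in ischemia, again with no overlap (-2.33 ± 0.41, limma adjusted p = 0.0477; -2.49 and 0.0315 without the array). A second Dennd4b probe set differed by -0.03.

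Atrx encodes a chromatin remodeller that helps to deposit histone H3.3 at repeats. It had 6.09, 6.13, 6.34 and 6.45 in ischemia+reperfusion, against 7.80, 7.76, 7.75 and 7.80 in ischemia, and the 4 ischemia arrays lay within less than 0.1 log2 units of each other. Its difference was -1.53 ± 0.27 (limma adjusted p = 0.0453), a second called probe set differed by -1.22, and the other 4 tested ones ranged from -0.56 to 0.00 without a call. H1f4, a linker histone of a family with closely related copies, had 7.19, 7.13, 7.41 and 7.22, against 7.91, 8.95, 8.63 and 8.40 in ischemia. The difference of -1.23 ± 0.14 (limma adjusted p = 0.0095) was -1.49 (adjusted p = 0.0134) without array 1-1. Mphosph8, which binds methylated histone H3 as part of a silencing complex, had 8.57, 7.65, 8.50 and 7.54, against 8.86, 8.99, 8.78 and 8.94 in ischemia. Here the ischemia+reperfusion duplicates were split in the same way in both preparations, duplicate 2 being the lower. The difference of the averages was -0.83 ± 0.10 (limma adjusted p = 0.0122), but with arrays taken as samples the adjusted p was 0.179. Its other tested probe sets differed by 0.02 and 0.74 and were not called. Without array 1-1 the latter was -0.47 and was called lower (limma adjusted p = 0.0496).

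Pik3ca, the catalytic subunit of phosphoinositide 3-kinase alpha, had 8.95, 8.97, 9.11 and 8.89 in ischemia+reperfusion, against 10.40, 9.40, 9.85 and 9.81 in ischemia, with no overlap. The highest value was that of array 1-1, and the difference of -0.89 ± 0.10 (limma adjusted p = 0.0095) was -0.63 (adjusted p = 0.0622) without it; the other 5 tested probe sets of Pik3ca ranged from -0.16 to 0.11. Ankrd11, an ankyrin repeat regulator of chromatin, had 6.51, 6.09, 5.80 and 6.20, against 8.63, 7.04, 7.58 and 6.78 in ischemia, and its -1.36 ± 0.23 (limma adjusted p = 0.0453) was -0.96 (adjusted p = 0.0523) without the array. Prpf38b, a splicing factor, had 7.17, 6.97, 6.68 and 6.79, against 9.24, 7.70, 7.77 and 7.71 in ischemia, where array 1-1 stood alone. Its call held without that array (-0.81, adjusted p = 0.0488, against -1.20 with it), and its other 2 probe sets differed by -0.03 and 0.01. The list of 41 splicing factors and RNA-binding proteins tested, in which the brightest Prpf38b probe set (-0.03) stands for the gene, had 0 called, and 5 higher and 2 lower at an unadjusted p under 0.05.

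The remaining named lower genes kept their calls without array 1-1, and in none of them did the arms overlap, though Mbnl2 had an adjusted p of 0.189 with arrays taken as samples. Rif1, which sets replication timing and steers the repair of DNA breaks, differed by -1.01. Klf7, a Kruppel-like transcription factor, differed by -0.96, Coro1c, an actin-binding coronin, by -0.90, and Mbnl2, a regulator of alternative splicing, by -0.64. The transcriptional corepressors Bcor (-0.50) and Rcor1 (-0.63), named here after their values were seen, were also called.

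Many genes with a lower call had other tested probe sets that were not called. Of the 22 genes with a lower call, 19 had other tested probe sets, 44 in all, of which 31 shared the sign, 8 were also lower at an unadjusted p under 0.05 and 2 were higher; their median difference was -0.09, with a range from -0.84 to 1.25. Of the 23 genes with a higher call only 6 had other tested probe sets, 7 in all, with 5 of the same sign and a median of 0.04. For Coro1c the other probe set differed by 0.20 in the opposite direction, and for Mbnl2 the other 3 ranged from -0.16 to 0.00. The values above are therefore of probe sets, and whether they stand for all transcripts of a gene was not tested.

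Leaving out ischemia array 1-1 raised the number of calls to 157 (0.843%), 68 higher (0.365%) and 89 lower (0.478%). Of the 62 called with it, 50 (80.6%) were called again, and they made up 31.8% of the 157. The 12 that were not included Rgs14, Fa2h, Hps1, Thap3, Pik3ca and Ankrd11, and the largest shift was in Fa2h. Among the 107 gained, Gimap6, a GTPase of the immunity-associated family, had 9.76, 8.99, 9.01 and 9.44 in ischemia+reperfusion, against 7.80, 7.65, 7.90 and 8.06 in ischemia, and differed by 1.45 with all arrays (limma adjusted p = 0.0577) and 1.49 without array 1-1 (0.0431). Lmo7, a LIM domain protein, went the other way, at -1.02 with all arrays (limma adjusted p = 0.0577) and -1.04 without the array (0.0426).

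A few of the gained genes were decided by array 1-1. F8, coagulation factor VIII, had 7.73, 7.84, 8.24 and 7.77 in ischemia+reperfusion, against 5.21, 9.06, 9.51 and 9.48 in ischemia, the first being array 1-1. Its difference was -0.42 with all arrays (limma adjusted p = 0.665) and -1.38 without that array (0.0322). Enah, an actin regulator, had 9.92, 9.78, 9.92 and 8.36, against 4, 10.42, 10.25 and 10.66 in ischemia: array 1-1 was at the floor, and the difference turned from 0.66 (limma adjusted p = 0.669) with it to -0.95 (0.0431) without it. Array 1-1 was also the low point for Fads1 (4, against 10.66 to 11.46 on the other ischemia arrays) and for Ndufa6, a subunit of respiratory complex I (4.99, against 12.23 to 12.31). Their differences were 1.98 and 1.83 with it and 0.31 and 0.02 without it, and neither passed in either fit.

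**Figure D2:**
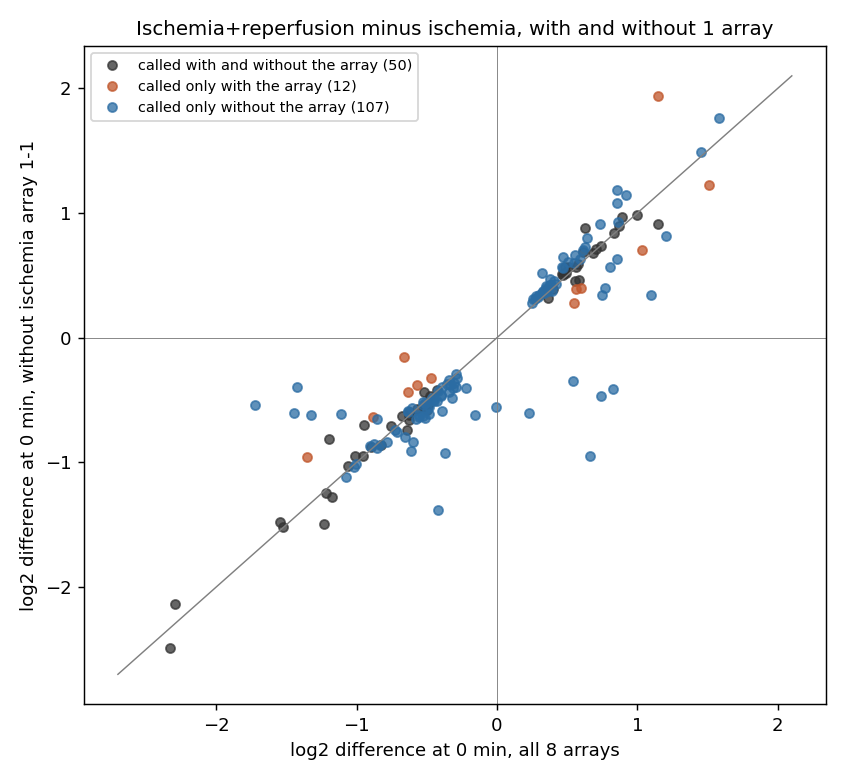
Log2 difference at 0 min (ischemia+reperfusion minus ischemia) with all 8 arrays on the x axis and without ischemia array 1-1 on the y axis, for the 169 probe sets called in either fit. Black points (50) were called in both, orange (12) only with the array and blue (107) only without it. Points on the diagonal did not move, and the blue points on the right below 0 changed sign.

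Cholesterol synthesis genes lay on the higher side in ischemia+reperfusion at 0 min. SREBP-2, encoded by Srebf2, is a membrane-bound transcription factor released when sterols are low, and it activates enzymes of the mevalonate and squalene pathways. Of the 26 genes tested, 24 had a difference above 0, 1 was called higher and 0 lower, 14 were higher and 0 lower at an unadjusted p under 0.05 (against 10.7% and 7.47% of all probe sets), and the median difference was 0.32 (0.41 in preparation 1 and 0.17 in preparation 2). Without array 1-1 the median was 0.30. Sqle, the squalene epoxidase that catalyses the first oxygenation step towards sterols, had 11.08, 11.27, 11.57 and 11.67 in ischemia+reperfusion, against 10.79, 10.66, 11.19 and 11.07 in ischemia. The groups overlapped over both preparations but not within either, and the difference was 0.47 ± 0.08 (limma adjusted p = 0.0477; 0.0345 without array 1-1, and 0.292 without preparation in the model).

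Srebf2 itself had 10.97, 10.82, 10.96 and 10.95 in ischemia+reperfusion, against 10.57, 10.15, 10.62 and 10.51 in ischemia, with no overlap. It was not called with all arrays (0.46 ± 0.10, limma adjusted p = 0.0718) and was called without array 1-1 (0.57, 0.0488). Next by p came Sc5d (0.34), Tm7sf2 (0.54) and Dhcr7 (0.35), 3 late enzymes of cholesterol synthesis, with limma adjusted p from 0.076 to 0.0838. The regulator Insig1, which holds SREBP in the endoplasmic reticulum, differed by 0.20, and Srebf1 by -0.04, neither of them called. In the mean of the later times the list's median was -0.04, with 1 member called higher and 2 lower (6.7% and 5.53% of all probe sets).

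SREBP proteins bind sterol regulatory elements, often beside the CCAAT box bound by the factor NF-Y, so these letters were looked for in the 250 bases before the start of each gene in RefSeq's annotation of GRCr8. Of the 26 genes, 20 had an entry, and Sqle was not among them. The sterol element core TCACNCCA, on either strand, was in 2 of the 20, Srebf2 and Msmo1, against 3.25% of 27457 promoters, and with a ninth letter, TCACNCCAC, which contains it, in 0 of 20 (0.976% of all). The shorter core was chosen after the longer gave no match. The letters ATTGG or the reverse, CCAAT, were in 15 of the 20, against 34.3% of all promoters. The promoters that hold both are shown because they carry the element next to CCAAT letters. Capitals mark both motifs, on the + strand, from chr7:115543057-115543306 for Srebf2 and chr16:29746863-29747112 for Msmo1, a sterol C4-methyl oxidase.
Srebf2: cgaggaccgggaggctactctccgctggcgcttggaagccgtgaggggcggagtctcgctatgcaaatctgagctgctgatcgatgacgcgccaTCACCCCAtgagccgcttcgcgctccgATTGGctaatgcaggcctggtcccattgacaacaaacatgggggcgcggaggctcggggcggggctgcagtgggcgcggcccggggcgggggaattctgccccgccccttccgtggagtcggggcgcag
Msmo1: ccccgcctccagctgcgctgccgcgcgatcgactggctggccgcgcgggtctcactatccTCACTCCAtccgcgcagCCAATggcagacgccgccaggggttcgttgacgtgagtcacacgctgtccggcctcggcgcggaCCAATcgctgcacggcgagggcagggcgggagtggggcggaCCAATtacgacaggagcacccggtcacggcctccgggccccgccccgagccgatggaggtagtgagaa
In Srebf2 the core began 156 bases before the start and the CCAAT letters 129 bases before it. Msmo1 had 1 core, 190 bases before the start, and 3 CCAAT matches. Msmo1 differed by 0.20 at 0 min and was not called (limma adjusted p = 0.298).

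**Figure D3:**
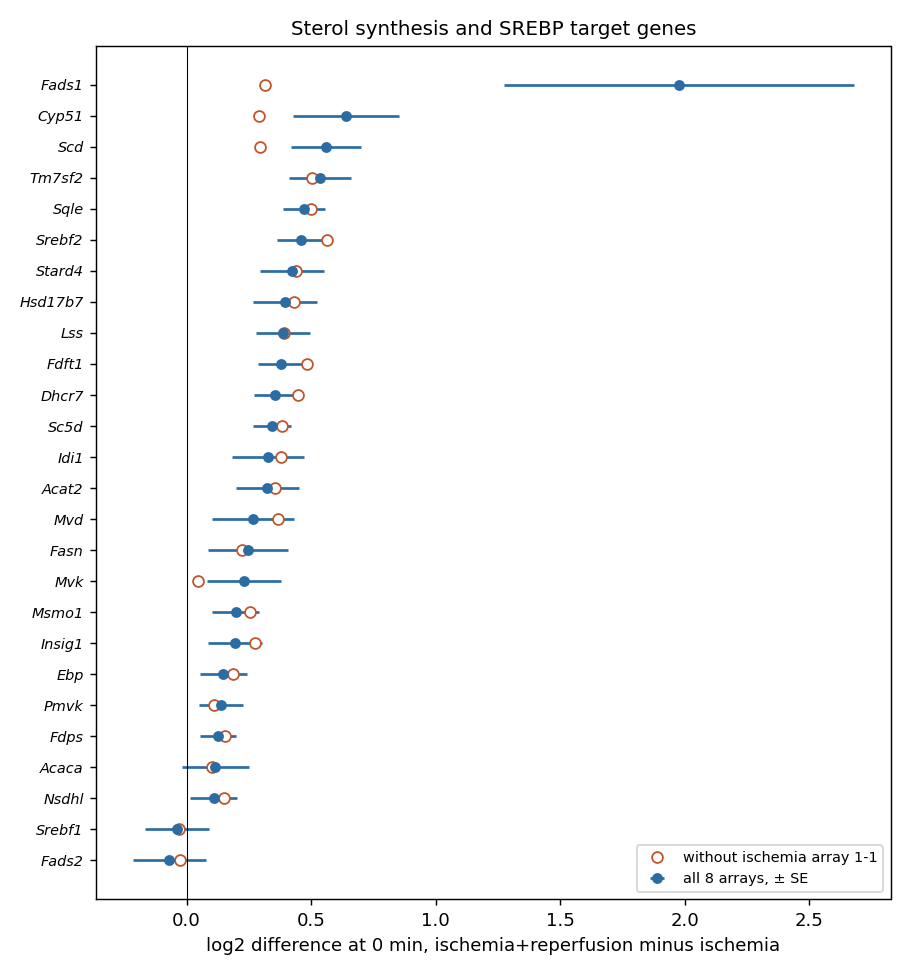
Log2 difference at 0 min (x axis, ischemia+reperfusion minus ischemia) for the 26 tested sterol synthesis and SREBP target genes (y axis). Filled points with bars are all 8 arrays ± SE and open points leave out ischemia array 1-1. All but Srebf1 and Fads2 lie above 0, and Fads1 drops to 0.31 without the array.

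Of 4 glucose-responsive genes tested, 3 had a difference above 0 and 0 were called. Txnip, an arrestin that blocks glucose uptake and binds thioredoxin, had 12.09, 12.10, 12.08 and 12.05 in ischemia+reperfusion, against 11.002, 11.72, 11.28 and 11.30 in ischemia. The groups did not overlap, and the difference was 0.76 ± 0.21 (limma adjusted p = 0.126; 0.58 and 0.282 without array 1-1). Its relatives Arrdc3 and Arrdc4 differed by 0.72 and 0.52, and Mlxip, the glucose-sensing factor that drives Txnip, by -0.23. Over the 4 genes the median was 0.62, and at an unadjusted p under 0.05, 3 were higher and 1 lower.

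The lists of stress and hypoxia genes had no called member at 0 min, each gene being read on its brightest tested probe set. None of the 36 immediate early genes tested was called, with 3 higher and 3 lower at an unadjusted p under 0.05 and a median of 0.05; Egr1, a zinc finger factor of that response, differed by -0.39 (limma adjusted p = 0.196). Of 31 targets of the hypoxia-inducible factor HIF, 0 were called, 6 were higher and 0 lower at an unadjusted p under 0.05, and the median was -0.05. Ankrd37, a HIF target, had 5.87, 5.51, 6.71 and 5.23 in ischemia+reperfusion, against 5.06, 4.89, 4 and 4 in ischemia, with 2 ischemia arrays at the floor; it did not pass (1.35 ± 0.38, limma adjusted p = 0.126). Of 27 heat shock genes 0 were called (0 higher and 5 lower at an unadjusted p under 0.05), of 26 genes of the endoplasmic reticulum stress response 0 (2 and 7), of 22 antioxidant genes 0 (2 and 0), and of 20 glycolytic enzymes 0 (1 and 0). The heat shock gene Hspb3 was called lower (-0.63) only without array 1-1, and ischemia+reperfusion array 2-2 held its lowest value, 10.26, against 11.45 to 11.51 on the other 3. Not counted in the lists, the heat shock transcription factor Hsf2 was called lower on 1 of 3 tested probe sets (-0.64 ± 0.10, limma adjusted p = 0.041). Without array 1-1 that probe set differed by -0.43 and was not called (limma adjusted p = 0.126).

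Lists of energy metabolism and translation had 0 called, and their medians depended on the scale. The 37 oxidative phosphorylation genes tested had a median of 0.01, the 23 of fatty acid oxidation 0.02 and the 34 cytosolic ribosomal proteins 0.01, with 1, 2 and 1 higher and 0 lower in each at an unadjusted p under 0.05. With arrays centred on their medians in place of quantile normalization these medians were -0.14, -0.02 and -0.22, beside 0.02 for all probe sets, and on the deposited scale -0.10, 0.02 and -0.18, beside 0.06. Among 39 cell cycle genes 0 were called, 10 were higher and 1 lower at an unadjusted p under 0.05, and the median was 0.10. Ccnb2, a mitotic cyclin, had 10.18, 10.36, 10.59 and 10.27 in ischemia+reperfusion, against 9.86, 9.93, 10.13 and 9.90 in ischemia; at 0.40 ± 0.07 it missed the threshold (limma adjusted p = 0.0503) and passed without array 1-1 (0.0431). Kcnj3, a subunit of the potassium channel opened by G proteins in atrial muscle, did likewise (0.42, 0.0525; 0.0374 without the array), as the sole such gene among 21 for calcium handling and ion channels. None of the 11 cardiac stretch and fetal genes tested had a difference above 0; 0 were called, 0 were higher and 4 lower at an unadjusted p under 0.05, and the median was -0.18 (-0.32 with arrays centred on their medians and -0.28 on the deposited scale). Without ischemia+reperfusion array 2-2 it was -0.04. Xirp1, an actin-binding protein of striated muscle, and Csrp3, a LIM protein of the Z-disc, had the smallest p, with differences of -0.27 and -0.18 (limma adjusted p = 0.181 and 0.232). No member was called of 28 extracellular matrix, 16 kinase feedback and RGS, 12 circadian clock or 11 BCL2 family genes, with 3, 3, 1 and 1 higher and 1, 1, 2 and 1 lower at an unadjusted p under 0.05. Rgs14, called higher above, was not in the kinase feedback and RGS list.

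Cell type markers, each read on its brightest tested probe set, gave no calls at 0 min with all arrays. All 18 tested fibroblast markers had a difference above 0, with a median of 0.21 (0.21 without array 1-1), 0 called, and 6 higher and 0 lower at an unadjusted p under 0.05. Their mean level was 11.02, 10.997, 10.75 and 11.08 on the ischemia+reperfusion arrays, against 10.50, 10.81, 10.79 and 10.64 on the ischemia arrays, so the arms overlapped. Of the 23 cardiomyocyte markers 5 had a difference above 0; the median was -0.10, with 0 called and 0 higher and 6 lower at an unadjusted p under 0.05. That median was -0.30 with arrays centred on their medians and -0.26 on the deposited scale, where the fibroblast median was 0.21 and 0.25. Without ischemia+reperfusion array 2-2 the medians were -0.05 for cardiomyocyte and 0.11 for fibroblast markers. Without ischemia+reperfusion array 2-1 the cardiomyocyte median was -0.155, and without ischemia array 2-2 the fibroblast median was 0.135. The mean cardiomyocyte marker level ran from 12.49 to 12.71 in ischemia+reperfusion, against 12.66 to 12.80 in ischemia. Of 15 macrophage and leukocyte markers 0 were called (2 higher, 0 lower at an unadjusted p under 0.05; median 0.14), with means of 8.80 to 9.14, against 8.72 to 8.97 in ischemia. Medians of the endothelial, epicardial, neural and smooth muscle lists were 0.08, 0.22, 0.23 and -0.08, with 0 called in each. Without array 1-1, Tubb3 of the neural list was called higher (0.81, limma adjusted p = 0.0431). In that fit the cardiomyocyte marker Ldb3 was called lower on probe sets other than its brightest (-0.62 and -0.65, limma adjusted p = 0.0314 and 0.0373). With all arrays these were not called (-0.56 and -0.57, limma adjusted p = 0.0503 and 0.0712). In bulk RNA, fewer cells of a type and less RNA per cell cannot be told apart, and the part of cell makeup in the calls was not tested. Of 4 sex-linked genes tested 0 were called, 2 had a difference above 0, and 0 were higher and 1 lower at an unadjusted p under 0.05. Their median was -0.03 and their differences ran from -0.94 to 0.57. The lowest was Xist, expressed from the inactive X chromosome of female cells. It had 8.37, 7.70, 8.37 and 8.35, against 8.997, 9.32, 9.23 and 9.02 in ischemia (-0.94 ± 0.23, limma adjusted p = 0.0874).

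The same probe sets were then followed at the later times, which share no array with the 0 min comparison but share its preparations and variance estimates. At 30 min 58 of the 62 differed in the same direction and 16 were called in it (0.532% of all probe sets were called in either direction), and at 60 min 57 and 28 (5.38%), with 1 called in the opposite direction. At 10 min 34 of the 62 shared the direction and at 120 min 37, and limma called no probe set at all at either time (0%, with 1860 or 9.99% and 1333 or 7.16% at an unadjusted p under 0.05). The median of the 29 higher members was 0.58 at 0 min, 0.04 at 10 min, 0.31 at 30 min, 0.28 at 60 min and 0.02 at 120 min. For the 33 lower members it was -0.75, 0.01, -0.45, -0.44 and -0.05. Over all 18625 probe sets, the 0 min difference correlated with that at 10, 30, 60 and 120 min by 0.01, 0.38, 0.33 and 0.08.

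**Figure D4:**
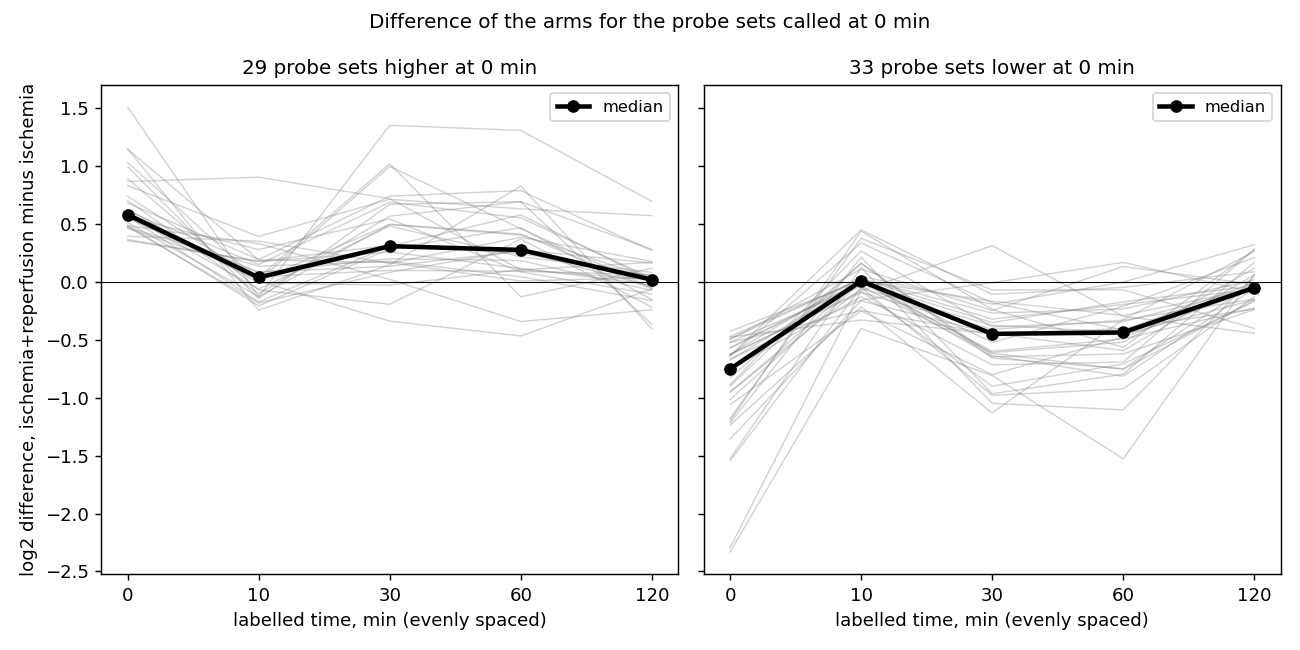
Log2 difference of the arms (ischemia+reperfusion minus ischemia) at each labelled time for the 29 probe sets called higher (left) and the 33 called lower (right) at 0 min. Grey lines are probe sets and the black line their median, which lies near 0 at 10 and 120 min and away from it at 0, 30 and 60 min.

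Irf2 illustrates the pattern: it differed by 0.74 at 0 min, 0.01 at 10 min, 1.00 at 30 min (limma adjusted p = 0.0017), 0.46 at 60 min (0.0163) and -0.05 at 120 min. Myh1, annotated as a skeletal myosin heavy chain, gave -0.63, -0.08, -0.90 (0.00412), -0.71 (0.00815) and -0.17. These are of 1 probe set, the only one of 5 tested for Myh1 that was called at 0 min. With arrays taken as samples its limma adjusted p at 0 min was 0.0918. The 2 called Atrx probe sets were called lower at 60 min (-1.10 and -0.80), and Mphosph8 at 30 min (-0.66) and 60 min (-0.75). Sync, an intermediate filament protein of striated muscle, was called lower at both times as well (-0.65 and -0.62). Nfkbil1 differed by -0.01, -0.03, 0.11 and 0.02 at 10, 30, 60 and 120 min, and Mapt by -0.07, 0.31, -0.30 and -0.44, none of them called.

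Averaged over 10 to 120 min, 57 of the 62 had the same direction and 32 were called in it, where 2278 of all probe sets (12.2%) were called. Gal3st4 was higher by 0.58 ± 0.07 (limma adjusted p = 0.00241), Rgs14 by 0.81 ± 0.14 (0.00714) and C8h3orf18 by 0.36 (0.00363), while Sync was lower by 0.37 (0.00122). The difference at 0 min minus this later mean was also tested, and limma called none of 18625 probe sets (0%, with 2206 or 11.8% at an unadjusted p under 0.05). With duplicates taken as samples 29 were called, and with array weights 220. The smallest adjusted p among the 62 was 0.0559, for Nfkbil1.

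On single arrays, the levels of these probe sets separated the arms at 0 min, where they were chosen, and at 30 and 60 min, and overlapped at 10 and 120 min. On each array, the median deviation of the 29 higher members from their mean over 40 arrays was 0.22 to 0.28 in ischemia+reperfusion at 0 min and 0.04 to 0.20 at the later times. In ischemia it was -0.36 to -0.31 at 0 min, 0.00 to 0.07 at 10 min, -0.31 to -0.14 at 30 min, -0.27 to -0.17 at 60 min and 0.08 to 0.16 at 120 min. For the 33 lower members it was -0.48 to -0.17 in ischemia+reperfusion at 0 min and -0.27 to 0.26 at the later times. In ischemia it was 0.36 to 0.49 at 0 min, -0.28 to -0.04 at 10 min, 0.19 to 0.35 at 30 min, 0.18 to 0.28 at 60 min and -0.18 to 0.13 at 120 min. Among the lower members duplicate 2 lay below duplicate 1 in most groups and preparations. In ischemia+reperfusion at 0 min it had -0.36 against -0.17 in preparation 1 and -0.48 against -0.25 in preparation 2. The reverse held in preparation 2 of ischemia+reperfusion at 30 min (-0.23 against -0.27). What sets the duplicates apart was not tested. The ischemia arrays at 0, 30 and 60 min lay on one side and those at 10 and 120 min nearer to the ischemia+reperfusion arrays, in both preparations. The labels give no batch or date for these groups. In the order of samples in the series, ischemia at 0, 30 and 60 min comes first. Ischemia at 10 and 120 min follows, and then ischemia+reperfusion. The labels do not say whether this order reflects handling, and what separates the groups was not tested.

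**Figure D5:**
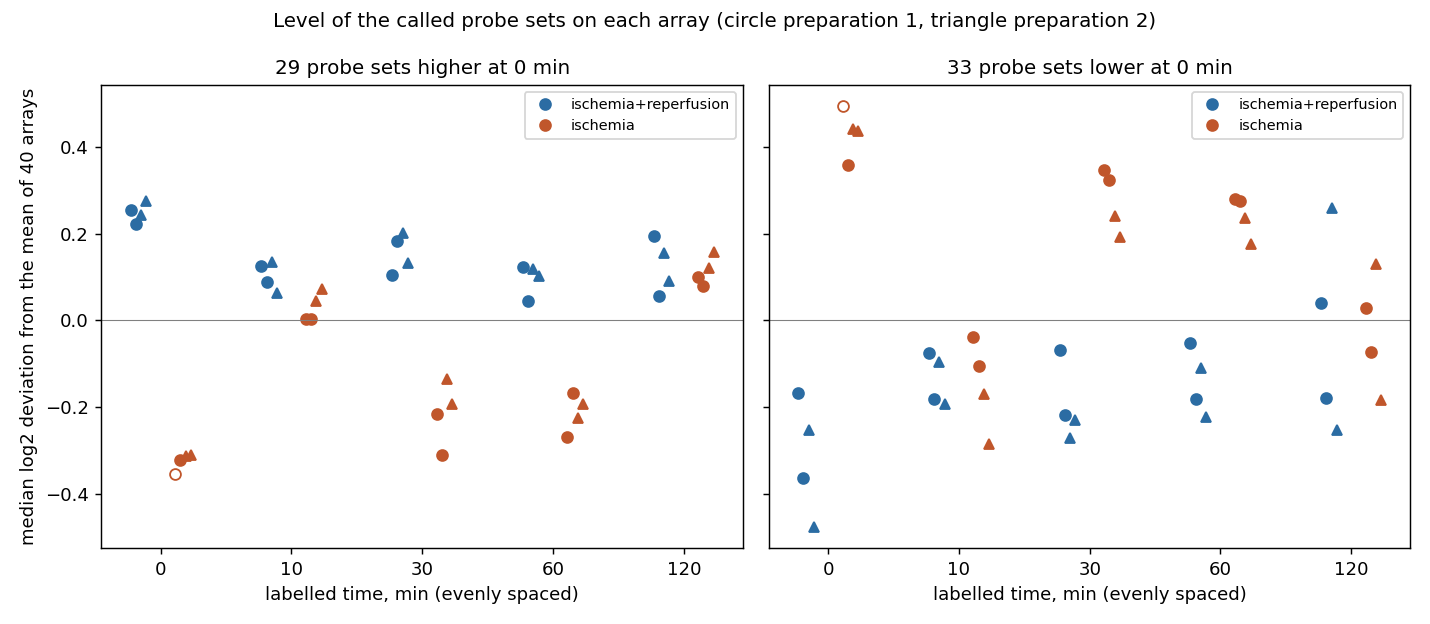
Median log2 deviation of the 29 higher (left) and 33 lower (right) probe sets from their mean over 40 arrays, for each array, by labelled time. Ischemia+reperfusion is blue and left of ischemia in orange at each time, circles are preparation 1, triangles preparation 2 and the open circle is ischemia array 1-1. The ischemia arrays at 0, 30 and 60 min lie apart from those at 10 and 120 min.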

How the data were processed

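Total RNA was purified on columns, amplified to biotinylated cRNA and hybridised to Affymetrix rat arrays, per the labels. The authors deposited 1 table of probe set intensity values on a linear scale (-1725 to 17404, with 15.8% negative), for which neither an algorithm nor a scaling is given in the sources used here. From these, the 40 arrays were quantile-normalized, floored at 0 and transformed to log2(intensity + 16), which understates changes of dim probe sets. Of 31042 probe sets, the 18625 with a mean above the 40th percentile (6.48) were tested; 20826 carry 1 gene symbol, 436 several and 9780 none in the annotation used. Duplicates were averaged, and the 20 averages of 10 groups were fitted in limma 3.58.1 (R 4.3.3) with preparation as a block, 9 residual degrees of freedom and Benjamini-Hochberg adjustment over all probe sets tested within a comparison. The number of arrays limits the precision.

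The pairing comes from the titles, which mark preparations shared by all groups; preparation differences correlated by a median of 0.18 over 45 pairs of groups, above 0.1 in 34 of them, and by 0.13 between the 0 min groups. Named genes are the 12 highest and 12 lowest called with 1 symbol, called genes of the 29 lists (brightest probe set), the 6 highest and 6 lowest called only without ischemia array 1-1, the 5 of smallest adjusted p, and up to 2 of each list without calls; others were chosen after their values were seen. Lists are described by counts and medians, with no set test. Members, lists and tests were chosen with earlier results of these data known. The fit was also run on simulated data with independent noise and no preparation effect or outlying array, so that run does not bear on the calls.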

Additional observations from a re-analysis of the deposited data

Results flagged for a closer look

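Of the 74 groups of 4 arrays at 0 min examined for the named genes, 9 held an array whose gap to its nearest neighbour took up most of the group's range; chance alone marks about 1 in 20 such groups. Ischemia array 1-1 was the odd one in 5 of the 9: Prpf38b (9.24, against 7.70 to 7.77 on the other 3), Tubb3, a neuronal tubulin (7.10, against 8.52 to 8.81), F8 (5.21, against 9.06 to 9.51), Enah (4, the floor, against 10.25 to 10.66) and Pakap, an anchoring protein for protein kinase A (8.34, against 10.36 to 10.55). Tubb3, F8, Enah and Pakap were named because they were called only without array 1-1, so its distance from the other 3 there follows from the choice, and the chance rate does not apply to them. In ischemia array 1-2, Tigd5 had 7.66, against 7.91 to 7.96. In ischemia+reperfusion, array 2-2 was low for Ccl27, a chemokine (5.41, against 7.24 to 7.44), and for Enah (8.36, against 9.78 to 9.92), and array 1-2 for Mon1b, a subunit of a Rab7 exchange factor (5.98, against 6.81 to 6.91).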

How the results depend on the processing

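The 62 calls at 0 min became 16 with no replicate block (preparation left out of the model, all 16 among the 62). They became 4 from the 8 arrays alone, 17 on the deposited scale, 107 with no filter, 483 with 40 arrays as samples and 619 with array weights. Without 2 arrays at 120 min (ischemia+reperfusion 2-1 and ischemia 2-2), set aside as a pair possibly exchanged between the arms, 35 passed. An exchange is not labelled and was not tested, and the 120 min values above include both arrays. Leaving out 1 array at a time gave 28 (without ischemia 1-2) to 238 (without ischemia 2-1), and 157 without ischemia 1-1; without both arrays of lowest correlation, chosen after seeing the data, 122 passed. Median centring (59), a pseudocount of 64 (77) and a filter at the 60th percentile (62) kept the count within 1.5 times. Of the settings, Mettl7b lost its call in 10 of 17, Dennd4b in 9 of 17 and Mbnl2 in 9 of 18. Rgs14, Ankrd11 and Rsrp1 lost theirs in 8 of 17 and Sqle in 8 of 18. The fewest losses were those of C8h3orf18, in 1 of 17. No named gene called at 0 min changed direction under any setting in which it was examined. Named genes were not examined without both arrays of lowest correlation, and at the 60th percentile filter 8 of 25 were. Enah, gained without array 1-1, had 0.66 with all arrays and reversed to -0.95 (adjusted p = 0.0431) without it; with 1 array left out its values ran from -0.95 to 2.27, and array weights gave -0.55.

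For the mean difference over 10 to 120 min, the 2278 calls became 1427 with no replicate block, 3497 with arrays as samples and 6623 with array weights. On the deposited scale they became 7102, of which 6975 were higher and where the median of all probe sets was 0.17. Leaving out 1 array at 0 min gave 1671 to 2607, and leaving out the pair at 120 min gave 3356. The 0 calls for the 0 min difference minus the later one became 29 with arrays as samples, 220 with array weights, 7 with no filter, 1 at the 60th percentile and 8 without the pair at 120 min, and 0 to 7 when 1 array was left out. Over 14 settings the median of the sterol list ran from 0.27 to 0.35, fibroblast markers from 0.11 to 0.29, cardiomyocyte markers from -0.30 to -0.05, cardiac stretch and fetal genes from -0.32 to -0.04, ribosomal proteins from -0.22 to 0.02, oxidative phosphorylation from -0.14 to 0.02 and glycolytic enzymes from -0.17 to 0.01. The causes of these shifts were not tested. With 2 preparations per group, small differences were not detectable.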
